A study of Mus musculus with 7 samples.

Results

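The regions described here were the broadest H3K9me3 domains of the WT peak list, chosen by 1 measured value, their width: autosomal WT peaks (chromosomes 1 to 19) whose end lay more than 1000 bp after their start. H3K9me3 is histone H3 trimethylated on lysine 9. There were 356 such wide peaks of 21957 autosomal WT peaks and of 26965 peaks in the WT and KO lists together. Both lists came from Setdb1 cKO iMEFs, an immortalised mouse embryonic fibroblast line recloned from single cells and screened for a good response to 4-hydroxytamoxifen (4OHT), so 1 clone stands for each condition. WT cells carried the same conditional allele and were untreated. KO cells received 4OHT, which deletes Setdb1, and were harvested at day 7. The study's deletion protocol gives 4 days of 4OHT, whereas its Results speak of treatment for 7 days in this experiment. With 1 H3K9me3 library per condition there was no replicate, so the spread between cultures is unknown and no difference below was tested. The other 5 of the 7 samples, from iMEF input and embryonic forebrain, were not analysed here, and no expression data were used to check the cell type or the deletion.

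Setdb1 is a histone methyltransferase that deposits H3K9me3. It is brought to DNA mainly by the corepressor Trim28, which binds KRAB zinc-finger proteins. These proteins read DNA through tandem arrays of C2H2 fingers, each finger a short loop that holds a zinc ion with a pair of cysteines and a pair of histidines and is joined to the next by a conserved linker. The genes for them lie in clusters that grew by duplication, and the long exon coding for the finger array is a known site of H3K9me3. Endogenous retroviruses (ERVs) are the other well-known target of this pathway, whereas satellite repeats at centromeres are marked mainly by the Suv39h enzymes.

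Zinc-finger arrays recurred among the wide peaks. The 31-base sequence found in the largest number of them occurred in 36 of the 356 peaks, on 9 chromosomes. Of these 36 peaks, 15 belonged to a group on chromosome 12 linked by shared sequence, and 21 lay outside that group. It is shown because it reads as the joint between neighbouring fingers (capitals mark the codons of the last zinc-binding histidine and of the linker after it).
Most shared 31-mer: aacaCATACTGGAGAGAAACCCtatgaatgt

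Of the 36 wide peaks with this 31-mer, 35 held at least 1 finger unit and 32 held 3 or more. None of the 36 held a KO peak, where 17.1% of all wide peaks did, and the 15 of the chromosome 12 group are not independent regions. A finger unit was defined here as an open stretch of 84 bases that codes for 2 cysteines, 2 histidines and the linker at the spacing of a C2H2 finger, on either strand. The widest peak of all, chr10:81365318-81369655 (mm9), carried 17 of them, as did 3 other wide peaks, and 6 of the 17 followed one another without a gap. The 4 units below are the first of that run (minus strand of chr10:81366853-81367188). They are shown as an example of the unit, held at least once by 101 of the 356 wide peaks. Capitals mark the codons of the zinc-binding cysteines and histidines.
Unit 1: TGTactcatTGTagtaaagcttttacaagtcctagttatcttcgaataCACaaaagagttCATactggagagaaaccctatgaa
Unit 2: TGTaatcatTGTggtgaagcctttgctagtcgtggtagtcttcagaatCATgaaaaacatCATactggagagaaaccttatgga
Unit 3: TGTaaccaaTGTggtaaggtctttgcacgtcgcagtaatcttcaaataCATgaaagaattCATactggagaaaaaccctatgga
Unit 4: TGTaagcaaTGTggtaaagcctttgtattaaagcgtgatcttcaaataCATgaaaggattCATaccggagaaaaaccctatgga
These units were identical to each other at 71.4% to 83.3% of their bases. The midpoint of the peak was intergenic, and its span overlapped Zfp781, a zinc-finger gene. Its pileup, the largest number of fragments over 1 position, was 20, 8.65 times the local background after 1 was added to both, and no base of it lay in a KO peak.

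A different repeat filled the wide peaks at the start of chromosome 9, where the assembled sequence begins. The 2 units below are neighbours in the peak chr9:3034200-3035490 and are shown because this 234-base repeat was the best tandem period of 13 of the 14 wide peaks in chr9:3000033-3038311, and 468 bases that of the other (plus strand of chr9:3034201-3034668, capitals mark the bases that differ between the units).
Unit A: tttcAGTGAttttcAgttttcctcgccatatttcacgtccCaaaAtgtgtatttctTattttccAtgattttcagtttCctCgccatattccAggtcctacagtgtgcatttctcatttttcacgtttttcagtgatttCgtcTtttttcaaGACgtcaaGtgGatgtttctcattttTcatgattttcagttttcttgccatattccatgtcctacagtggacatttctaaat
Unit B: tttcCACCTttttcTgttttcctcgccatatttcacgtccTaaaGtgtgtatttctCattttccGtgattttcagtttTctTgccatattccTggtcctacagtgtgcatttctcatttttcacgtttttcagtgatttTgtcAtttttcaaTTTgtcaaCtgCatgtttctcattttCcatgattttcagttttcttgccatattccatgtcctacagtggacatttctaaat
The units differed at 21 of their 234 bases, an identity of 91.0%. A repeat of this length is the known unit of mouse major satellite DNA, the sequence of pericentric heterochromatin, and these peaks are called the chr9 block here.

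The width rule fixed how wide the peaks are, so the following values only describe them. Their median width was 1336 bp and their greatest 4337 bp, and 2 were wider than 4000 bp. They made up 1.62% of the autosomal WT peaks and 11.8% of the bases in them, 545208 of 4623095 bp. The 10 peaks just outside the rule measured 991 to 1000 bp and the 10 just inside it 1002 to 1010 bp. Pileup ranged from 11 to 140 on both sides of the limit, and 1 peak on each side shared bases with a KO peak. Median pileup was 15 in the wide peaks and 10 over all WT peaks, and median fold enrichment was 6.12 against 4.63.

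In the KO list, 4 autosomal peaks passed the same width rule. The number fell steeply at each width in both lists, from 7000 WT and 403 KO peaks wider than 200 bp to 1474 and 37 wider than 500 bp. No KO peak was wider than 1500 bp, whereas 130 WT peaks were. The KO peaks over 1 kb were chr10:7229417-7230534 and chr9:3036531-3037572, both inside wide WT peaks, and chr8:20029733-20030806 and chr8:74358145-74359505, which touched none. Local background in these 4 was 4.27 to 74.1 fragments, and the smallest belonged to the chr8 peak of 1360 bp. The study's methods give 1 approximate range of reads for the iMEF libraries together and no total for each list, so the part of sequencing depth in these numbers was not tested.

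**Figure D1:**
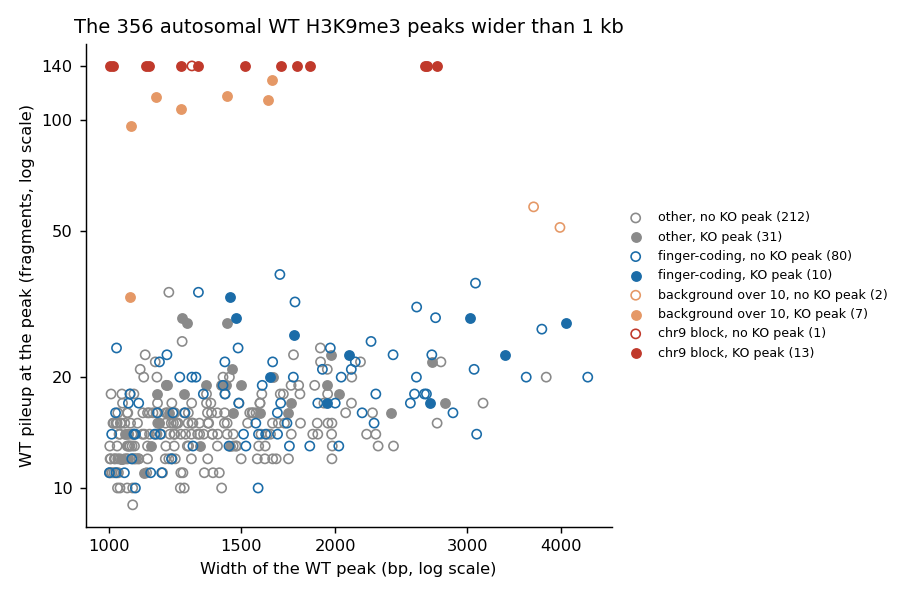
Pileup (fragments, log scale) against width (bp, log scale) of the 356 wide WT peaks, each point a peak, coloured by kind and filled where a KO peak shares a base. The 14 peaks of the chr9 block all sit at a pileup of 140, and the 90 finger-coding peaks lie between 10 and 38.

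Finger-coding sequence was denser in the wide peaks than in narrower ones, per base and around the midpoint. The autosomes held 4495 finger units, 1.82 per Mb, and 741 of them (16.5%) lay wholly inside the wide peaks, which cover 0.0221% of the autosomes. That is 1359 units per Mb of wide peak, against 20.3, 114 and 400 per Mb in WT peaks of up to 200, of over 200 to 500 and of over 500 to 1000 bp. A unit fits less often into a narrow peak, and counting each unit by its midpoint gave 1418 per Mb of wide peak against 44.2, 152 and 460. The 500 bases around the midpoint held a unit in 77 of the 356 wide peaks, 21.6% (Wilson 95% interval 17.7 to 26.2), and in 1.45% (1.30 to 1.62) of all autosomal WT peaks. These intervals cover counting error only.

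Members of the list with 3 or more finger units are called finger-coding here, a rule made after the sequences were seen, and there were 90 of them on 13 chromosomes. In all 90 the tandem period of highest identity was 84 bases or a multiple of it, which the definition of a finger unit favours. Of all 356, 102 had such a period. The finger-coding peaks were wider than the rest, with a median of 1645 bp against 1268 bp. A wider peak has more room for 3 whole units, so the rule favours this order. Their median pileup was 18 and that of the 266 others was 15. Their sequence was seldom highly repeated: 32 of the 90 were single-copy, meaning that the median 31-mer occurred once in the genome, and the highest median was 18 occurrences.

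Of the 741 units, 482 (65.0%) lay within the inner 50% of the width of their peak. Units crossing a peak edge were not counted, which favours the middle, and the share under even placement was not computed. Only 211 of the 741 fell in annotated coding exons and 530 did not, so most of it lay outside what GENCODE M1 annotates as coding. Of 331 autosomal genes with at least 3 coding finger units, 32 had a unit in a wide peak and 93 had one touching any WT peak. In those 32 genes the wide peaks took in a median of 100% of the units. The longest arrays wholly covered were the 13 units of Gm13051 on chromosome 4, and the 9 units each of Gm13139 and Gm13251 on chromosome 4 and of AU041133 and Gm4767 on chromosome 10.

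**Figure D2:**
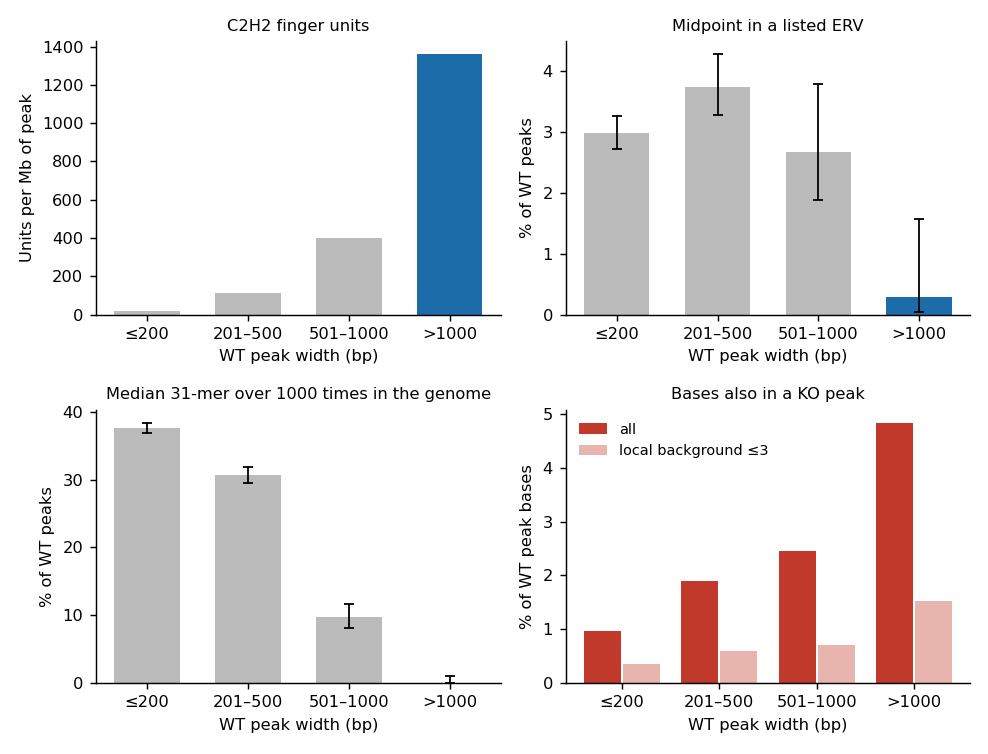
Finger units per Mb of peak, share of peaks with the midpoint in a listed ERV, share of peaks whose median 31-mer occurs over 1000 times in the genome, and share of WT peak bases also in a KO peak, for 4 width classes of autosomal WT peaks. Bars are values and whiskers Wilson 95% intervals (shares of peaks only), and finger units rise from 20.3 to 1359 per Mb while shares of highly repeated peaks fall from 37.6% to 0%.

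Genes named as zinc-finger proteins gave the same picture on a smaller scale, because many finger genes carry other names. The midpoint lay in a Zfp gene in 14 wide peaks, 3.93% (2.36 to 6.49), against 1.07% (0.947 to 1.22) of all WT peaks. The share of all genes with a WT peak or a wide one was not computed. Of 362 autosomal Zfp genes, 78 had a WT peak in the body or promoter and 15 had a wide one, 17 wide peaks in all. After Zfp781, the widest were chr17:17281188-17284250, 3062 bp, whose midpoint lay in a coding exon of Zfp97 and which held 12 units, and chr8:71750456-71753326, 2870 bp, at Zfp930 with 8 units. Zfp942 (2023 bp), Zfp936 (1676 bp), Zfp600 (1195 bp), Zfp763 (1176 bp) and Zfp932 (1096 bp) also held the midpoint in a coding exon. Zfp958 was covered by 2 wide peaks of 1851 and 1437 bp, and Zfp600 by 2 of 2086 and 1195 bp. Zfp2, Zfp943, Zfp68, Zfp951, Zfp950 and Zfp81 had 1 each, of 1580 bp down to 1002 bp. Of these 17 peaks, 1 shared bases with KO, the 2086 bp peak at Zfp600, at 163 bases.

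The other gene families examined are given as counts of genes, also without the share over all genes. With 1.62% of all autosomal WT peaks being wide, counts of 0 wide ones say little about them. Vomeronasal receptor genes (29 of 431), protocadherin genes (9 of 35), Speer genes (4 of 12), beta-defensin genes (3 of 42) and the Sp100 family (3 of 3) had WT peaks and no wide one. None of 25 genes named Zkscan or Zscan had a WT peak, although several of them code for the same finger units, for example Zscan2 with 10. Among 1241 olfactory receptor genes, 12 had a WT peak and 1 a wide one, Olfr1357 at chr10:78082601-78085295, 2694 bp with a pileup of 22 and 206 bases in KO peaks.

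The wide peaks were gathered in clusters and spread unevenly over the chromosomes. Chromosome 10 held 54, chromosome 17 held 37, chromosome 11 held 33 and chromosome 8 held 31, whereas chromosome 3 held 2 and chromosome 6 held 1. All WT peaks varied far less, with 6.11 peaks per Mb on chromosome 16, the lowest, and 13.8 on chromosome 17, the highest. The wide peaks were 3.31% of the WT peaks of chromosome 11 and 0.104% of those of chromosome 6. When peaks under 500 kb apart were joined, 13 clusters of at least 5 held 118 of the 356 (33.1%) in 9.74 Mb, and 65 of the 90 finger-coding peaks (72.2%).

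**Figure D3:**
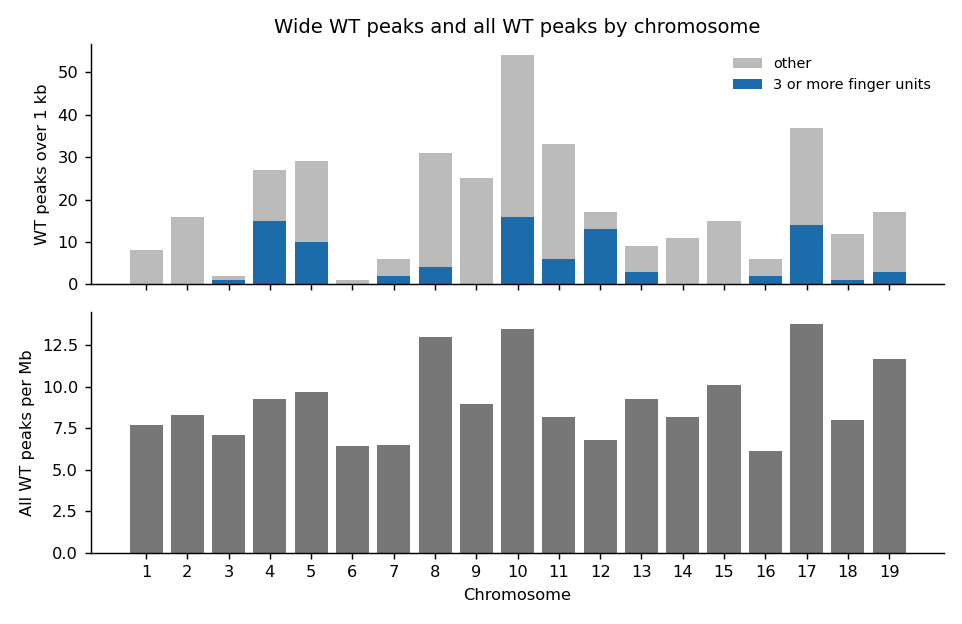
Number of wide WT peaks on each autosome, with those holding 3 or more finger units in blue (top), and all WT peaks per Mb (bottom). Chromosomes 10 and 17 lead with 54 and 37 wide peaks, and chromosome 6 has 1.

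The cluster chr10:81159462-81841416 spanned 0.682 Mb, with 23 wide peaks among 164 WT peaks. Of the 164 finger units in this span, 142 lay inside the wide peaks. No base of the 46871 in these wide peaks lay in a KO peak. The cluster chr4:145212345-146767443 also held 23, over 1.56 Mb, with 113 of 138 units inside them, and 9 of its 23 shared bases with KO. The clusters chr5:110105186-110508380 (6 wide peaks), chr17:22016488-22852668 (6) and chr11:121684771-121830703 (6) held 6, 6 and 5 finger-coding peaks, and none held a KO base. Their wide peaks took in 46 of 90, 39 of 84 and 34 of 36 units. Among clusters with units, this share ran from 10 of 60 at chr17:32699846-33864687 to 4 of 4 at chr10:78082601-79029205.

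**Figure D4:**
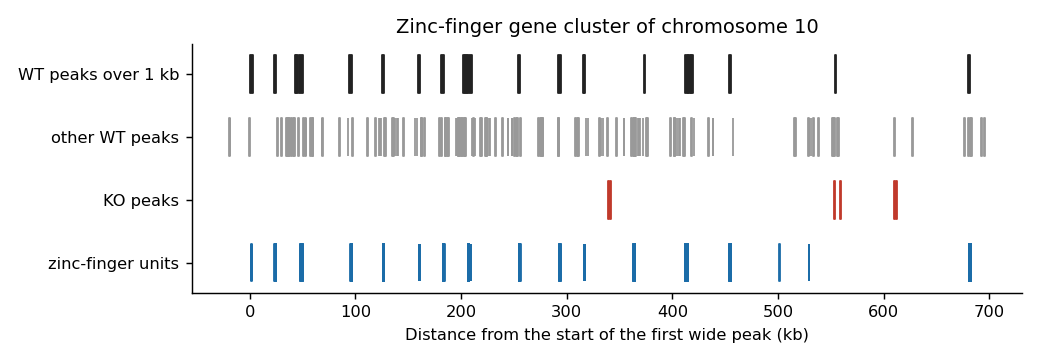
Positions, in kb from the start of the first wide peak, of the 23 wide WT peaks, 148 other WT peaks, 6 KO peaks and 169 finger units of the zinc-finger cluster of chromosome 10 with 20 kb on either side. The wide WT peaks take in 142 of the 164 units of the cluster, 8 of the 23 hold no unit, and no KO peak overlaps a wide one.

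On chromosome 12, many wide peaks shared sequence with each other, and their identity over the full width was not computed. A group of 15, linked by at least 100 shared 31-mers, lay in chr12:18411548-24900630, with a median of 12 genome occurrences per 31-mer. Finger-coding sequence was present in 13 of them, 129 units in all, and none of the 15 held a KO base. Because reads that fit several places were assigned to 1 of them at random, the shared stretches cannot be told apart as sources of these reads.

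Listed ERVs were scarce among the wide peaks. The midpoint lay in an element of the study's ERV lists in 1 of 356, 0.281% (0.0496 to 1.57), and in 685 of 21957 autosomal WT peaks, 3.12% (2.90 to 3.36). The listed classes were RLTR6-int, IAPEz-int, RLTR4_MM-int, MMERVK10C-int and VL30 of U3 classes I, III and IV, 1067 autosomal elements together. By midpoint, narrower and wider WT peaks gave 353 in IAPEz-int, 280 in MMERVK10C-int, 40 in RLTR6-int, 4 in RLTR4_MM-int and 5, 1 and 2 in the VL30 classes. The 1 wide peak was chr12:18877608-18878693, 1085 bp, in MMERVK10C-int. It also held 4 finger units, and the listed interval around it spans 316655 bp, whereas the listed elements have a median length of 6424 bp. Without that single interval over 20 kb the count was 0 of 356, which allows a share of up to 0.843% by the limit of 3 counts and 1.07% by the Wilson bound. The lists hold elements of these classes only, with a median length from 311 bp in VL30 class IV to 7643 bp in RLTR6-int, and other repeats were not annotated here.

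In the assembled mm9 genome, in which satellite arrays are largely missing, the highest median 31-mer count of a wide peak was 891. The median 31-mer occurred over 1000 times in the assembly in 0 of 356 wide peaks (Wilson upper bound 1.07%) and in 37.6%, 30.7% and 9.75% of the peaks of up to 200, of over 200 to 500 and of over 500 to 1000 bp. Single-copy sequence made up 141 wide peaks, 39.6% (34.7 to 44.8), against 29.7% (29.1 to 30.3) of all WT peaks. A median over a longer peak takes in more flanking sequence, and the 500 bases around the midpoint gave 37.4% for the wide peaks. With 51-mers the wide-peak share was 63.8%, and no 51-mer share of all WT peaks is given here.

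Many wide peaks shared sequence. At least 100 shared 31-mers linked 173 of the 356 to another wide peak. The largest such group had 36 peaks on 11 chromosomes, with a median GC content of 36.5% and a median of 38.8 genome occurrences, and held no finger unit. The most shared 31-mer of this group, found in 20 of its peaks, in 24 of all wide peaks and 8812 times in the genome, is given as its tag.
Tag of the largest group: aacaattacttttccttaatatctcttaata
None of these 36 lay in a listed ERV. In KO, 7 of the 36 held a peak, 19.4% (9.75 to 35.0), and 2.79% of their bases were covered, where all wide peaks gave 17.1% and 4.84% and all WT peaks 2.33% and 2.00%.

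Midpoints were found in genes more often than for WT peaks at large, 34.6% (29.8 to 39.6) against 24.2% (23.7 to 24.8). Promoters, from 2 kb before to 0.5 kb after a transcript start, held 31 midpoints (8.71%), coding exons 21 (5.90%) and introns 74 (20.8%), and 220 (61.8%) were intergenic. Over all WT peaks, promoters held 3.63% and coding exons 0.779%.

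A small set of wide peaks covered CpG-dense, low-background sequence. More than 20 CpG per kb and a local background of at most 3 fragments, limits set after the values were seen, picked 9 wide peaks, of which 8 were single-copy. The nearest coding gene starts were those of Sox21, Six2, Nkx2-3, Foxd3 and Foxb1, which encode developmental transcription factors, and of Gad2, which makes the transmitter GABA, and Aldh1a2, which makes retinoic acid. The ninth, at Gm13251, lay in the chromosome 4 zinc-finger cluster. The CpG-densest 150 bases, clear of annotated UTRs, of the 4 most CpG-dense peaks are shown for comparison with the finger and satellite repeats above (plus strand, capitals mark CpG).
Foxd3 side, chr4:99320497-99320646: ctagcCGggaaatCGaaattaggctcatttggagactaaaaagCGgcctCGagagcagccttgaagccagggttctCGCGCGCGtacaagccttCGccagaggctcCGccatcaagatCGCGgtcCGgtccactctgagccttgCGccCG
Aldh1a2, chr9:71064319-71064468: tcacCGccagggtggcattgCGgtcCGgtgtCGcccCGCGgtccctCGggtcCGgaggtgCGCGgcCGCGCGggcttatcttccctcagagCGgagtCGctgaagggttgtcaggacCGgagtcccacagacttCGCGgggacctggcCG
Six2, chr17:86084603-86084752: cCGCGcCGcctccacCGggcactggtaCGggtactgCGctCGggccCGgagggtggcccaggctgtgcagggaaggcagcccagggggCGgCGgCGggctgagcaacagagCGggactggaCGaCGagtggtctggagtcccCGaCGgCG
Nkx2-3, chr19:43686460-43686609: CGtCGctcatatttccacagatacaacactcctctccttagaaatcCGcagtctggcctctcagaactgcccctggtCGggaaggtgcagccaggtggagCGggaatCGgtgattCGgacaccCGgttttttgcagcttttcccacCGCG
These stretches hold 15, 19, 17 and 10 CpG in 150 bases.

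The Sox21 peak, chr14:118631309-118634075, was the broadest of them at 2766 bp, with a pileup of 22 and a fold enrichment of 9.94. Its midpoint lay 3.56 kb from the gene start, in a UTR. The Six2 peak (chr17:86084467-86085593, 1126 bp, pileup 12) and the Gad2 peak (chr2:22479887-22481260, 1373 bp, pileup 14) were intronic, 2.56 and 2.85 kb from the starts. At Nkx2-3 there were 2, chr19:43683638-43684799 and chr19:43685726-43686791, with pileups of 17 and 13, and the latter lay in the promoter, 0.556 kb from the start. The peak beside Foxd3 (chr4:99319364-99320977, 1613 bp, pileup 12) was the richest, with 49.6 CpG per kb, 2.82 kb from that gene start and overlapping Gm12688. The Aldh1a2 peak (chr9:71064034-71065196, pileup 15) had 44.8 CpG per kb. None of the 9 held a KO base, a count that leaves a Wilson upper bound of 29.9% for the share with a KO peak. Of all wide peaks at that background 11.3% held one, so a count of 0 among 9 was not distinguishable from that share. CpG density as such did not distinguish the wide peaks: more than 20 CpG per kb around the midpoint was met in 6.18% (4.12 to 9.18) of them and 5.48% (5.19 to 5.79) of all WT peaks.

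The gene lists examined are given as counts of genes. The share of all genes with a WT peak or a wide one was not computed, so these counts have no baseline. Of 30 matched imprinted genes, 8 had a WT peak in the body or promoter and 2 a wide one, both intronic and single-copy. These were chr17:13015280-13016633 in Airn, the antisense RNA of the Igf2r locus, with a pileup of 16, and chr7:150400445-150401455 in Kcnq1, the host gene of the Kcnq1ot1 antisense RNA, with a pileup of 11. They held 3.70 and 1.98 CpG per kb and no KO base. Of 14 germline genes, 7 had a WT peak, of 12 interferon genes 1 had one, and of 9 genes of the H3K9 pathway, Setdb1 included, none had one, and no gene of these lists had a wide peak.

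Most wide peaks had no peak in their place in KO. Of the 356, 295 shared no base with a KO peak and 61 shared at least 1 base, 17.1% (13.6 to 21.4), where the same overlap was met by 2.33% of all 21957 autosomal WT peaks. A wide interval has more room for an overlap, and by bases 26413 of 545208 bp were in KO peaks, 4.84%, against 2.00% over all WT peaks. By width class the base shares were 0.961%, 1.90%, 2.45% and 4.84%. Inside the wide peaks lay 99 KO peaks, 182 per Mb against 120 per Mb of WT peak overall. Among the 61, 34 held 1 KO peak, 20 held 2 and 7 held 3 to 5.

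The KO peaks inside were mostly narrow. Their median width was 208 bp, with a range from 64 to 1117 bp, while the median over all autosomal KO peaks was 84 bp. Their median pileup was 23 and that of all KO peaks 10. In the 61 wide peaks that kept any, KO peaks covered a median of 18.7% of the width.

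KO coverage moved with the height of the WT peak. Within the same band of WT pileup, wide peaks and those of up to 1000 bp had near-equal base shares in KO: 0.273% and 0.362% at pileups of 9 to 11, 0.834% and 0.932% at 12 to 14, and 1.94% and 1.98% at 15 to 19. At 20 or more the wide peaks had the lower share, 13.1% against 27.8%. Where the local background was at most 3 fragments the wide peaks had the higher share in both upper bands, 1.80% against 1.16% at 15 to 19 and 2.63% against 1.11% at 20 or more. Few peaks held a KO peak there, 17 of 117 wide and 21 of 672 narrower ones at 15 to 19. At 20 or more these were 10 of 41 and 3 of 98. The wide share of 0.273% at 9 to 11 came from 1 peak of 29. When both lists were limited to pileups of at least 15, the order of wide and all WT peaks turned, with 11.2% against 15.3% of peaks and 5.25% against 8.59% of bases.

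Local background moved with KO coverage too. In the 23 wide peaks with a background over 10 fragments, 20 held a KO peak and KO peaks covered 44.0% of the bases, 66.5% of all KO bases in wide peaks. In the 300 with a background of at most 3, 34 held a KO peak (11.3%, 8.22 to 15.4) and 1.52% of bases were covered, where all WT peaks at that background gave 1.12% and 0.614%. The 33 in between had 7 with a KO peak (21.2%) and 3.61% of bases covered. In WT peaks of up to 1000 bp KO coverage rose with background as well. At a background of at most 3, 0.970% of them held a KO peak and 0.510% of their bases were covered. The values were 21.2% and 13.7% at 3 to 10, and 61.4% and 50.2% over 10. By bases the wide peaks thus had the higher share at a background of at most 3 and the lower share above it.

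**Figure D5:**
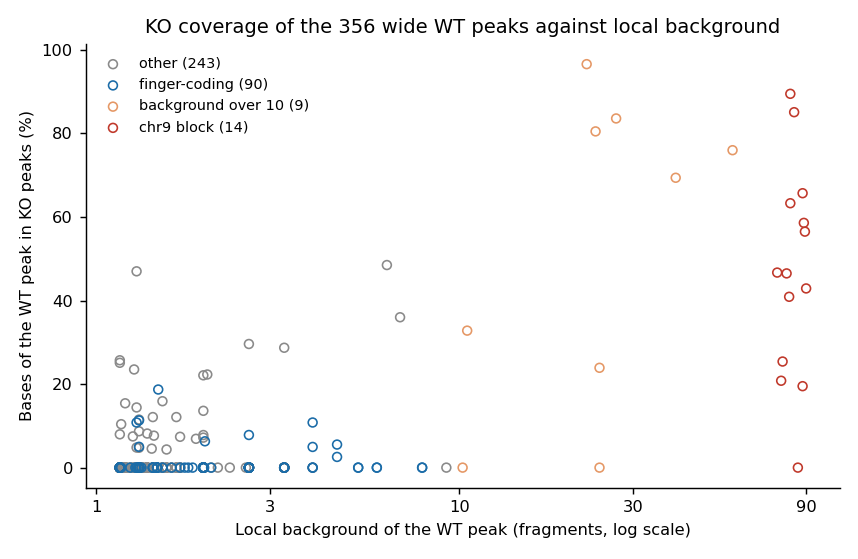
Share of each wide WT peak's bases in KO peaks (%) against its local background (fragments, log scale), each circle a peak, coloured by kind. Finger-coding peaks stay at or under 18.7%, and the peaks above 50% all have a background over 10.

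The chr9 block accounted for much of this. All 14 peaks had a pileup of exactly 140, a background of 75.0 to 90.1 and a fold enrichment of 1.55 to 1.86. The chr9 peaks of 1000 and 998 bp just outside the width rule also had a pileup of 140. Whether this shared value is a ceiling left by the removal of duplicates was not tested. Whether these low fold enrichments reflect weak H3K9me3 was not tested either. In KO, 13 of the 14 held peaks, which covered 49.0% of their bases, from 0% in chr9:3034200-3035490 to 89.5% in chr9:3035577-3038311. The 300 bases at the midpoints of these are given because they are the same repeat at the lowest and highest KO coverage of the block (capitals mark CpG).
No KO base, chr9:3034696-3034995: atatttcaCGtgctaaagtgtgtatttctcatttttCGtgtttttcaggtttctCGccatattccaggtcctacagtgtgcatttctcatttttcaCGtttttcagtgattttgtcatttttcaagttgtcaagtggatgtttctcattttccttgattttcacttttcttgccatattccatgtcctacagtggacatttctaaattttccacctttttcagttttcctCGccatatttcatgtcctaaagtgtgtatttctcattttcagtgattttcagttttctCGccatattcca
Most KO bases, chr9:3036795-3037094: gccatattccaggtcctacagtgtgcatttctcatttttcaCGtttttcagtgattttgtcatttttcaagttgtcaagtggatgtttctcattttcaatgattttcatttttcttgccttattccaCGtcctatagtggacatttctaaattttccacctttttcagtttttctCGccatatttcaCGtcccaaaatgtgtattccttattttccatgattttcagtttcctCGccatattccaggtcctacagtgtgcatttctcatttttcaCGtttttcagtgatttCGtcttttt
Both windows carry 6 and 7 CpG in 300 bases. Without the block, 48 of 342 wide peaks held a KO peak (14%) and 2.90% of bases were covered.

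Outside the block, the wide peaks with the highest −log10 q and the highest share of bases in KO were 3 neighbours on chromosome 10, chr10:7229400-7230556, chr10:7232525-7233960 and chr10:7234044-7235293. Their pileups were 115, 116 and 107 over backgrounds of 22.4, 27 and 23.7, and KO peaks covered 96.6%, 83.6% and 80.5% of them. The 300 bases at the midpoint of the first, which had the highest −log10 q of all wide peaks at 36.4, show its short tandem repeat (capitals mark CpG).
chr10:7229829-7230128: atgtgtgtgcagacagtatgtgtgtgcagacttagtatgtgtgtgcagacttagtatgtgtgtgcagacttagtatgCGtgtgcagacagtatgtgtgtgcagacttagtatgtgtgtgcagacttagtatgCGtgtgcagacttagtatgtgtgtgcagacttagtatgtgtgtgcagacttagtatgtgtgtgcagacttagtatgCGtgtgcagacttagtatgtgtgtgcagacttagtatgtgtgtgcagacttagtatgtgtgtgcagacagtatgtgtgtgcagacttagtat
The best tandem period was 74 bases in 2 of the 3, at 79.5% and 81.1% identity, and 482 bases in the other. Peaks near the assembled ends of chromosomes 4 and 11, chr4:3016667-3018316 and chr11:3000929-3002558, also kept 76% and 69.4% of their bases, with backgrounds of 56.5 and 39.4 and pileups of 128 and 113. The tandem repeat at chr4:118219671-118220740, with a 44-base period and a −log10 q of 22.0, kept 23.9%.

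High pileup over high background did not always go with a KO peak. The peak chr1:24618417-24622400, 3983 bp at Gm10925 and Gm10222, had a pileup of 51, a background of 10.2 and no KO base. Of its 31-mers, 98.6% were also found in the mitochondrial genome, so reads of nuclear and mitochondrial origin cannot be told apart there. The peak chr17:39980629-39984303, 3674 bp with a pileup of 58 and a background of 24.3, held 108 CpG per kb, the most of any wide peak, and no KO base. It counted as single-copy in the assembly. Copies missing from the assembly would not enter that count, and the sequence of this peak was not identified here.

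Among the finger-coding peaks, 10 of 90 held a KO peak (11.1%, 6.15 to 19.3) and 1.05% of their bases were covered, against 19.2% (14.9 to 24.3) and 6.50% of the 266 others. The others included all 23 peaks with a background over 10, and at a background of at most 3 the values were 6 of 74 (8.11%) with 0.857% of bases for finger-coding peaks and 28 of 226 (12.4%) with 1.79% for the others. At the level of single units, 18 of 741 touched a KO peak, 2.43%. Of these 10 peaks, 8 lay on chromosome 4, where 8 of 15 finger-coding peaks held a KO peak, and 2 lay elsewhere, of 75. The chromosome 4 peaks also had the higher median pileup, 27 against 17, and background, 3.29 against 1.47 fragments, and the part of these in the count was not tested.

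By number of bases, the finger-coding peak with most KO coverage was chr4:145887224-145889903 at Rex2, with 288. By share of the peak, the most covered were chr13:65613455-65614933 at Gm10139, with 277 bases or 18.7%, and chr3:12856791-12858556, with 200 bases or 11.3%. The former had the highest fold enrichment of all wide peaks, 12.1, with a pileup of 29. On chromosome 4, coverage went from 2.56% in chr4:146431032-146435088, which at 4056 bp was the second widest peak and overlapped Gm13138, to 10.8% in the peaks at Gm13051 and Rex2. The peak chr4:145729565-145732640 at Gm13251 had a −log10 q of 22.7 and a pileup of 36, its midpoint in a coding exon, and no KO base. On chromosome 5, chr5:110105186-110106875 at 5430403G16Rik had a pileup of 38, the highest of the finger-coding peaks, and no KO base either.

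Other wide peaks completed the named set. Without a KO base were chr13:12918133-12921952, intergenic and 3819 bp wide, chr4:145416437-145420205 at 1700029I01Rik, 3768 bp wide with 10 finger units, and chr19:61258126-61259442 at Gm6020, with a pileup of 34 and 4 units. In the chr9 block, chr9:3005521-3008159 kept 1545 bases and chr9:3031197-3032977 kept 1126. Among wide peaks with a background of at most 3, the most covered was chr8:18496246-18497297, at 47.0% of its bases, with a pileup of 14 and single-copy sequence, a peak chosen after its value was seen.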

How the data were processed

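H3K9me3 was profiled by ChIP-seq. The study's methods describe MNase digestion for native ChIP and name no fragmentation in their ChIP-seq section. Per the study's methods, the authors mapped 76-base single-end reads to mm9 with Bowtie2 2.2.3, placed reads with several hits at random at 1 of their sites and removed duplicates with Picard. MACS 2.1.0.20140616 is named in the file headers, and its options are not given in the sources used here. The deposited pileup is a signal, the fragment coverage of a peak. The deposited fold enrichment is a ratio of pileup to local background, each plus 1. For significance the authors deposited p- and q-values as −log10. Local background was recovered as (pileup + 1) / fold − 1. The lists hold no summit, so the midpoint stood in for the summits that the design named. Whether starts count from 0 or 1 is not stated.

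From these lists, overlaps of at least 1 bp, covered bases and midpoint positions were computed with Python 3.11.15, pandas 2.3.3 and pysam 0.24.0, on mm9 (NCBIM37) and GENCODE M1. Copy number was the median genome count of a peak's 31-mers. The tandem period was the lag of 20 to 500 bases at which most bases recurred. Interval and finger-unit code was tested on simulated data. Shares carry Wilson 95% intervals. The study's methods give an approximate range of reads for the iMEF libraries and no total for each, so depth per library and its precision could not be stated. Groups came from the labels, and the only comparison was WT with KO, without a test. Named peaks were the 6 widest, the 6 of highest −log10 q, the 6 with most KO bases and the 6 of highest pileup without a KO base, named genes those at these peaks, in the gene lists or in the families, and sequences those of the leader of each list outside UTRs and the most shared 31-mer. The leader of the first list is shown by its finger units. The members, gene lists and families were chosen with earlier results of these data known. Alternatives for width, overlap, pileup, background, joining, copy number and element limits are given in the closing section.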

Additional observations from a re-analysis of the deposited data

How the results depend on the processing

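No paired analysis was possible because each condition had 1 library. Of 40 alternative values, 17 stayed within the interval of the value reported (counts within 1.5 times) and 23 did not. The number of wide peaks was 644, 130 and 52 at widths over 750, 1500 and 2000 bp, 1455 with peaks under 1 kb apart joined and 214 at a pileup of at least 15. The share with a KO peak was 13% over 750 bp, 23.1% over 2000 bp, 11.2% with WT and KO pileups of at least 15, 11.3% at a background of at most 3, 11.7% after joining and 11.8% where at least 10% of the WT peak had to be covered. The share of bases in KO was 4.07% over 750 bp, 4.78% on all chromosomes, 5.25% at a pileup of at least 15, 1.52% at a background of at most 3, 4.93% after joining and 2.90% without the chr9 block, the last chosen after seeing the data. At a pileup of at least 15, all WT peaks had the higher values, 15.3% and 8.59%, so the order of wide and all peaks turned. It did not on all chromosomes (2.42% and 2.09% for all WT peaks), at a background of at most 3 (1.12% and 0.614%) or after joining (2.30% and 2.78%), the other settings at which all WT peaks were computed. The share in listed ERVs was 0% over 1500 bp, 0% over 2000 bp and 0% without intervals over 20 kb, the last also added after seeing the data. The share in Zfp genes was 7.69% over 2000 bp. The single-copy share was 34.6% over 2000 bp and 63.8% with 51-mers, because a longer word recurs less often. The reads of each library, the options of the peak caller and the use of the input library were not given, so the part of depth in any WT to KO difference was not tested.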
